A study of Mus musculus with 6 samples.

Results

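Chemokines and their receptors were examined in 6 mammary tumors of NeuT/ATTAC mice, 3 after IgG and 3 after an anti-PD-1 mAb. Members were the protein-coding genes of the mouse annotation (GRCm38, GENCODE release M21) with a standard CC, CXC, CX3C or XC chemokine name, and the receptors CCR, CXCR, CX3CR, XCR and ACKR (the atypical receptors). Of 54532 Ensembl gene IDs per tumor, 69 matched by name, and 3 were left out because they are not annotated as protein-coding (Ccl19-ps1, Ccl19-ps3 and Cxcl11). The remaining 66 gene IDs carried 61 symbols and comprised 44 ligands, 18 conventional receptors and 4 atypical receptors. A mean of at least 0.5 FPKM over the 6 tumors (fragments on a gene, scaled to its exon length and to the size of the library) was reached by 34 of them, which were 25 ligands, 7 conventional receptors and 2 atypical receptors.

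All of the mice were NeuT/ATTAC, a cross on the FVB strain between the MMTV-NeuT line, in which the mammary tumor virus promoter drives an Erbb2 transgene, and FAT-ATTAC, a transgene for ablation of fat cells by the dimerizer AP20187. IgG and anti-PD-1 mice alike were given 0.4 mg/kg AP20187 i.p. from 6 weeks of age to bring about mammary fibrosis. The labels give the schedule as biweekly and the methods as triweekly. From 8 weeks of age, 100 μg of isotype-matched IgG or of the antibody was injected i.p. 2 times per week. PD-1 is an inhibitory receptor of activated T cells. Each of the 3 libraries of a group is taken here as 1 tumor, although the legend of the study describes the RNA of a group as pooled. The labels do not say whether the 3 tumors of a group came from 3 mice, so that p-values measure the spread between these tumors.

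Chemokines are small secreted proteins, a few of them tethered to the membrane, that guide migrating cells along a gradient. They bind G protein-coupled receptors on leukocytes, endothelium and tumor cells, and one receptor commonly serves several ligands. CC ligands of CCR2 and CCR1 draw monocytes and macrophages, CXC ligands of CXCR2 draw neutrophils, and ligands of CXCR3 draw activated T and NK cells. Atypical receptors bind chemokines without G protein signaling and remove or transport them.

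The values multiplied by exon length fell on whole multiples of 1 read for 97.0% to 97.3% of detected gene IDs in each tumor and for every member, so that the reads behind a value could be recovered. Recovered reads came to between 21075641 and 23852764 per tumor. For a gene with exons of 1 kb, 3 reads were worth 0.117 to 0.136 FPKM, depending on the tumor. Wherever values of 3 tumors are listed, they follow the order of replicates 1, 2 and 3. The tissue label was checked against fixed marker lists. The 6 markers of mammary tumor epithelium summed to between 1914 and 3648 FPKM per tumor, and the summed macrophage and monocyte markers lay between 381 and 805 FPKM. All 8 T cell markers and all 8 B cell markers had a mean under 0.5 FPKM. In bulk tumor RNA, fewer cells of a type and less RNA per cell cannot be told apart.

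Among the 34 chemokines and receptors tested, 6 ligands were higher and 1 ligand was lower in anti-PD-1 tumors by at least 1.5-fold at an unadjusted p under 0.05 (limma on log2(FPKM + 1), two-sided). These are the fold and p thresholds of the study, which used DESeq2 and a further minimum on a raw score. The calls here are therefore not the study's calls. The higher ligands were Ccl8, Ccl7, Ccl9, Ccl6, Cxcl5 and Cxcl14, and the lower ligand was Ccl27a. Cxcl5 had an IgG mean of 0.259 FPKM and reached the minimum only through the anti-PD-1 tumors, as did Cxcr1, while Cxcl15 and Xcl1 reached it only through the IgG tumors. The counts over the members tested depend in part on these 4. The higher and lower ligands made up 17.6% and 2.94% of the members tested, where 3.9% of all 15069 genes tested passed these thresholds as higher and 4.53% as lower. No member and no other gene had a limma adjusted p (Benjamini-Hochberg) under 0.05. At an unadjusted p under 0.05 there were 1848 genes, 7 of them members, and voom on the recovered reads gave 1 gene, not a member, at an adjusted p under 0.05. The count of lower members was 3 without IgG replicate 1, which added Ccl12 and Xcl1. It was 2 without IgG replicate 3 (with Ackr3), anti-PD-1 replicate 1 (with Cxcl12) or anti-PD-1 replicate 2 (with Cxcl9).

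The groups did not overlap, with the anti-PD-1 tumors higher, for 5 members (Ccl8, Ccl7, Ccl9, Cxcl5 and Ccl5), which is 14.7% of those tested against 9.3% of all genes. Of these, Cxcl5 was tested only because of its level in the anti-PD-1 tumors, and Ccl5 overlapped in the values as deposited. With the anti-PD-1 tumors lower, the groups did not overlap for 1 member, Ccl27a, or 2.94% against 8.75% of all genes. With 3 tumors in each group, the smallest p-value of the exact permutation test is 0.1. The ligands had a median log2 fold change of 0.15, with 14 of 25 above 0, and the receptors of -0.07, with 3 of 9 above 0. Over all genes the median was 0.01, and 50.8% were above 0. Without IgG replicate 3 the ligand median was 0.00032, and without IgG replicate 2 the receptor median was 0.05. No receptor passed the thresholds with all 6 tumors, whereas Cxcr1 did as higher without anti-PD-1 replicate 1 and Ackr3 as lower without IgG replicate 3. Fold changes on the log2(FPKM + 1) scale understate the change of genes at a low level.

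**Figure D1:**
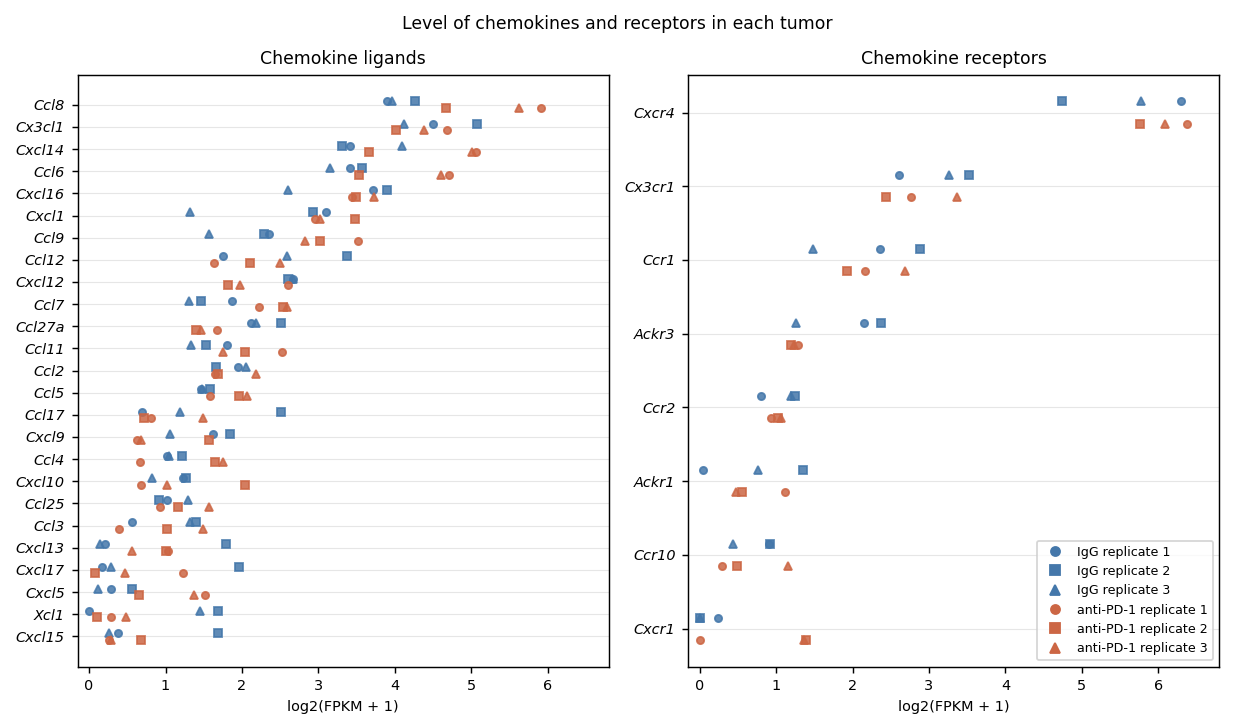
Level of 33 members with a mean of at least 0.5 FPKM, as log2(FPKM + 1) on the horizontal axis, with 1 point per tumor, 25 ligands on the left and 8 receptors on the right, sorted by mean FPKM. Cxcr4 and Ccl8 head the receptors and the ligands by this mean. The squares of IgG replicate 2 are the highest point in 15 of the 33 rows.

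**Figure D2:**
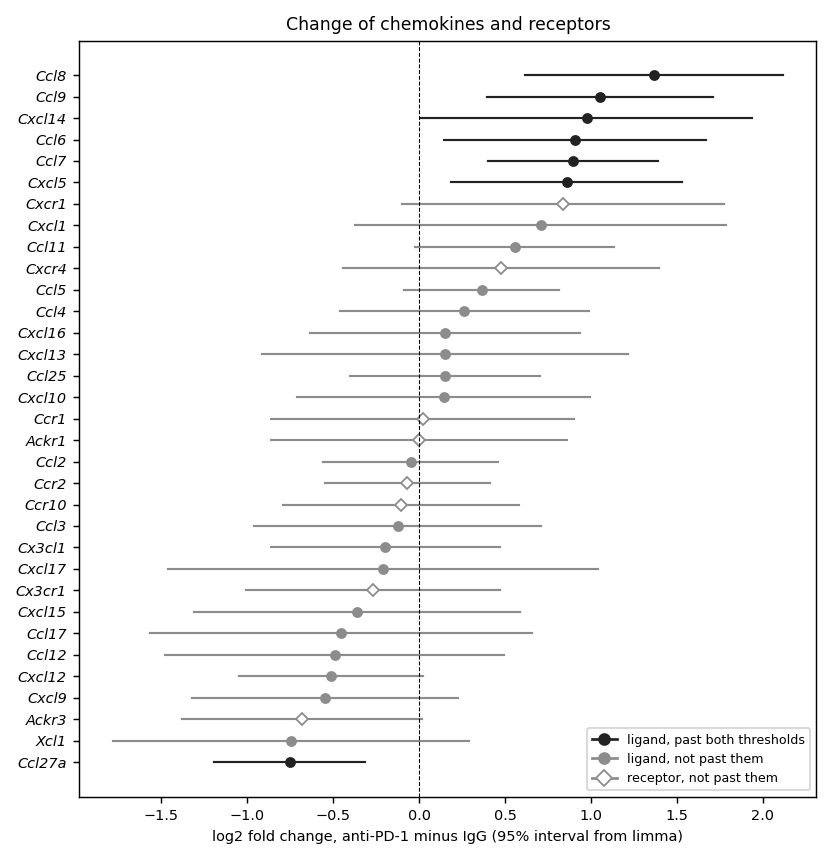
Log2 fold change of 33 members tested, anti-PD-1 minus IgG, with its 95% interval from limma. Circles are ligands, diamonds are receptors, and black circles are the 7 ligands past the thresholds (unadjusted p under 0.05 and at least 1.5-fold), 6 to the right of 0 and Ccl27a to the left.

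The ligands next to Ccl8 in mean FPKM were Cx3cl1, Cxcl14, Ccl6 and Cxcl16, and the ranges of neighbors in this order overlapped over the 6 tumors. Summed over all ligands, IgG tumors held 108, 146 and 95.9 FPKM and anti-PD-1 tumors held 200.2, 123 and 185 FPKM. The groups overlapped, since anti-PD-1 replicate 2 lay below IgG replicate 2 (exact permutation test, p = 0.2). Ccl8 alone took 12.5% to 15.2% of the ligand sum in IgG tumors and 19.9% to 29.6% in anti-PD-1 tumors. Without Ccl8 the ligand sums ran from 81.3 to 128 FPKM in IgG and from 98.6 to 141 FPKM in anti-PD-1 tumors.

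CCR2 ligands are the monocyte chemoattractants Ccl2, Ccl7, Ccl8 and Ccl12, of which Ccl8 is in the mouse also a ligand of Ccr8. Of the 4 ligands and Ccr2, all of them tested, 2 passed the thresholds, Ccl8 and Ccl7, both higher. Ccl8 (ENSMUSG00000009185, protein-coding, chromosome 11 from 82115185 to 82116799, plus strand) had the highest mean of all ligands over the 6 tumors, although Cx3cl1 was above it in each of the 3 IgG tumors. It had 13.9, 18.3 and 14.6 FPKM in the IgG tumors, against 59.2, 24.5 and 48.3 FPKM in the anti-PD-1 tumors. The groups did not overlap, and anti-PD-1 replicate 2 was the closest to the IgG tumors. The means were 15.6 ± 2.36 and 44.0 ± 17.7 FPKM (SD, n = 3 each), 2.82-fold apart. Its log2 fold change was 1.37 (standard error 0.32, limma adjusted p = 0.344), and the exact permutation test gave p = 0.1, the smallest it allows. Ccl8 passed the thresholds under all 14 alternatives, with log2 fold changes from 1.11 without anti-PD-1 replicate 1 to 1.73 without anti-PD-1 replicate 2.

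Ccl7 (ENSMUSG00000035373, protein-coding, chromosome 11 from 82045712 to 82047525, plus strand) draws monocytes out of the bone marrow together with Ccl2. It stood at 2.67, 1.77 and 1.48 FPKM in the IgG tumors, against 3.66, 4.79 and 4.99 FPKM in the anti-PD-1 tumors. The groups did not overlap, on between 29 and 95 reads per tumor. In limma it differed by 0.90 on the log2 scale (standard error 0.21, adjusted p = 0.344), which stayed past the thresholds under all 14 alternatives. Ccl2, the leading monocyte chemoattractant, lay between 2.16 and 3.17 FPKM in IgG and between 2.13 and 3.55 FPKM in anti-PD-1 tumors. Its log2 fold change was -0.05, with a 95% interval from -0.56 to 0.46. Ccl12, a mouse ligand of CCR2 close to Ccl2 in sequence, had 2.37, 9.39 and 5.04 FPKM in the IgG tumors, against 2.11, 3.30 and 4.63 FPKM in the anti-PD-1 tumors. IgG replicate 2 was the highest and the groups overlapped (log2 fold change -0.49, standard error 0.42, limma adjusted p = 0.650). Without IgG replicate 1 the change was -0.90 and Ccl12 passed the thresholds as lower, whereas without IgG replicate 2 it was -0.09.

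Ccr2, the receptor of these ligands on inflammatory monocytes, had 0.746, 1.37 and 1.28 FPKM in the IgG tumors, against 0.907, 1.04 and 1.09 FPKM in the anti-PD-1 tumors. All of the anti-PD-1 values fell inside the IgG range, and the 95% interval of the log2 fold change ran from -0.55 to 0.41. Ccr8, found on regulatory and Th2 cells, had between 0 and 8 reads per tumor, with 2, 8 and 1 reads in the IgG tumors, against 1, 0 and 0 in those given anti-PD-1. A count of 0 on its exons allowed up to 0.116 FPKM by counting error alone. It was too low to be tested.

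Ccl2, Ccl7, Ccl11, Ccl12 and Ccl8 follow each other on chromosome 11, and a further row of CC chemokines, with Ccl5, Ccl9, Ccl6, Ccl3 and Ccl4, lies on the same chromosome. Of 14 members on chromosome 11, 12 were tested and 8 had a log2 fold change above 0, with a median of 0.31, where the 1252 genes tested on this chromosome had a median of 0.07. Within the first row the change ran from -0.49 for Ccl12 to 1.37 for its neighbor Ccl8. Promoter sequences of these neighbors, of Ccl9 and of the CXCR2 ligand Cxcl1 are given to show their starts side by side.

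**Figure D3:**
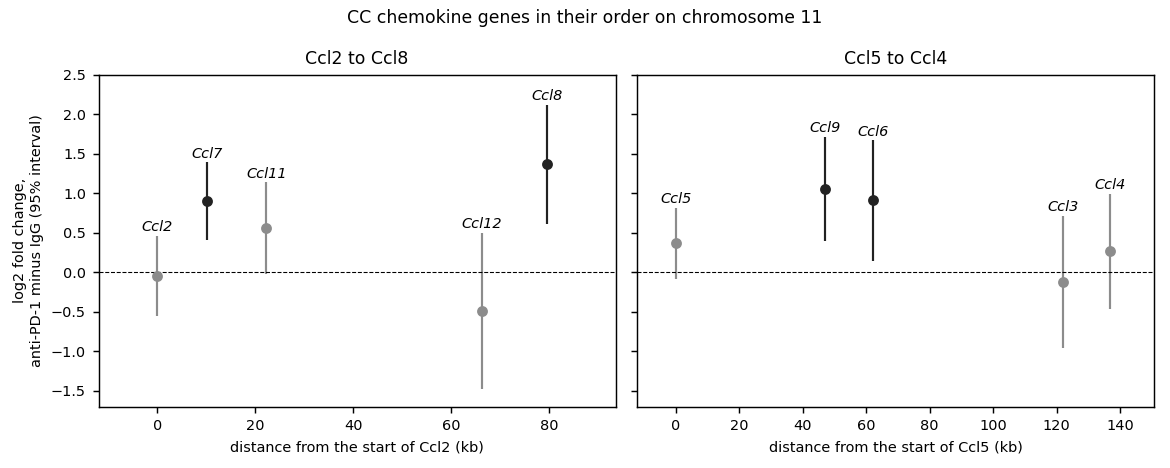
Log2 fold change (anti-PD-1 minus IgG) with its 95% interval from limma for the CC chemokine genes tested in both rows on chromosome 11, against the distance in kb from the start of Ccl2 (left) or of Ccl5 (right). Black points passed the thresholds. Ccl7 and Ccl8 lie above 0 on either side of Ccl12, which lies below 0, and Ccl9 and Ccl6 are neighbors.

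A promoter was listed by RefSeq on GRCm38.p6 for 45 of the 61 member symbols (52 promoters, each from 250 bases before to 50 bases after the start). Capitals mark matches, on either strand, to a TATA box (TATAAA) or to an NF-kB motif (GGG and TTTCC with 2 bases of any kind between them), and in Ccl9 a TATA match on each strand overlaps to form a single run.
Ccl12, chr11:82101595-82101894, + strand: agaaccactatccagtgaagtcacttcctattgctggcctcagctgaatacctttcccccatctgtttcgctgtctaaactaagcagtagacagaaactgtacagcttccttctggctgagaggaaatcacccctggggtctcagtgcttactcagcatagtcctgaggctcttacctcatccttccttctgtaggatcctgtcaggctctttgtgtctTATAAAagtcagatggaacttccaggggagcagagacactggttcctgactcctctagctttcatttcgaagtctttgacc
Ccl8, chr11:82114935-82115234, + strand: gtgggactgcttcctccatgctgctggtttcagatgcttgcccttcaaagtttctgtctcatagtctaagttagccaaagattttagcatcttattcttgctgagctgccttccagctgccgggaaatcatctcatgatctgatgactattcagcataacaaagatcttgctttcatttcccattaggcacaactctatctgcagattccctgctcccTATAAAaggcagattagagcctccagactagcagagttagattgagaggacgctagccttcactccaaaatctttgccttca
Ccl9, chr11:83578587-83578886, - strand: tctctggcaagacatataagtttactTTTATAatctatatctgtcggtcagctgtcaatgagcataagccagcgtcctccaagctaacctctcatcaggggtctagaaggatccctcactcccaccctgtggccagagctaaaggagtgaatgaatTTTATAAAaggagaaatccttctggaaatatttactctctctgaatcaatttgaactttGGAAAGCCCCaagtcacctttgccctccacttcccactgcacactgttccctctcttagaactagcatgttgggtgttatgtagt
Cxcl1, chr5:90890995-90891294, + strand: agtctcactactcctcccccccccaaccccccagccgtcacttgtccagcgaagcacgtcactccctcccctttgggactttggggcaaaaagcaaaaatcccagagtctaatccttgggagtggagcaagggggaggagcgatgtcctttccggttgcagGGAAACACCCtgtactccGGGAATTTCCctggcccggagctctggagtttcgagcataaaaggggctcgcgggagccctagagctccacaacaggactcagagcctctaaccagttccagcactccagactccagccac
Ccl12 and Ccl8 share a TATA box match at 31 and 32 bases before the start. Ccl9 holds an NF-kB match 35 bases before its start and TATA matches further away, the nearest at 92 bases. Cxcl1 holds NF-kB matches at 89 and 71 bases before the start and no TATA match. TATAAA was present in 14 of the 52 member promoters (26.9%) and in 13.6% of all 32851 promoters of this length. The NF-kB motif was in 6 member promoters, those of Ccl9, Cxcl1, Cxcl2, Cxcl3, Ccl20 and Ccr3 (11.5%), against 1.63% of all promoters. Searched in the same way, an interferon response motif (TTTC repeated after 2 bases of any kind) was in Ccl19, Cxcl10 and Cxcl14 (3.44% of all promoters). An AP-1 motif (TGANTCA) and an Ets motif (GAGGAA) were in 7.81% and 28.3% of all promoters and in 17.3% and 34.6% of the member promoters. A match is a run of letters and not a site that is known to be bound.

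The inflammatory CC ligands Ccl3, Ccl4, Ccl5, Ccl6 and Ccl9 are produced largely by macrophages and activated lymphocytes. Of these 5 ligands, all tested, 2 passed the thresholds, Ccl9 and Ccl6, both higher. These 2 ligands are rodent chemokines that act through CCR1. Ccl9 (ENSMUSG00000019122, protein-coding, chromosome 11 from 83572919 to 83578636, minus strand) had 4.103, 3.90 and 1.96 FPKM in the IgG tumors, against 10.4, 7.08 and 6.11 FPKM in the anti-PD-1 tumors. The groups did not overlap. The means were 3.32 ± 1.18 and 7.88 ± 2.27 FPKM (SD, n = 3 each), and the log2 fold change was 1.05 (standard error 0.28, limma adjusted p = 0.344), past the thresholds under all 14 alternatives.

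Ccl6 (ENSMUSG00000018927, protein-coding, chromosome 11 from 83587882 to 83593087, minus strand) had 9.67, 10.9 and 7.87 FPKM in the IgG tumors, against 25.1, 10.5 and 23.4 FPKM in the anti-PD-1 tumors. Anti-PD-1 replicates 1 and 3 lay above all IgG tumors, and anti-PD-1 replicate 2 lay below IgG replicate 2. This gave a log2 fold change of 0.91 (standard error 0.32, limma adjusted p = 0.370; exact permutation test, p = 0.2). The thresholds were no longer passed without IgG replicate 1 (0.93), IgG replicate 3 (0.79), anti-PD-1 replicate 1 (0.69) or anti-PD-1 replicate 3 (0.74).

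Ccl5 (RANTES), a product of activated T cells, macrophages and tumor cells, was low and narrow in range. It had 1.75, 1.997 and 1.79 FPKM in the IgG tumors, against 1.994, 2.88 and 3.20 FPKM in the anti-PD-1 tumors. As deposited, anti-PD-1 replicate 1 (1.994 FPKM) was a little below IgG replicate 2 (1.997 FPKM), and the groups did not overlap only after division by the scaling factors. A log2 fold change of 0.36 (standard error 0.19, limma adjusted p = 0.472) did not pass the thresholds. Ccl3 and Ccl4, the macrophage inflammatory proteins, lay between 0.306 and 1.81 and between 0.592 and 2.36 FPKM over the 6 tumors, on at most 37 reads. Their log2 fold changes were -0.13 for Ccl3 and 0.26 for Ccl4. Ccl3 ran from -0.39 without IgG replicate 1 to 0.16 without anti-PD-1 replicate 1. Ccl4 ran from 0.07 without anti-PD-1 replicate 3 to 0.60 without anti-PD-1 replicate 1, where it passed the thresholds.

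Ccr1, the receptor of Ccl6 and Ccl9 on myeloid cells, had 4.14, 6.38 and 1.79 FPKM in the IgG tumors, against 3.49, 2.81 and 5.41 FPKM in the anti-PD-1 tumors. IgG tumors marked both ends of the range. The log2 fold change was 0.02, with a 95% interval from -0.86 to 0.90, and it was -0.36 without IgG replicate 3 and 0.34 without IgG replicate 2. Ccr1, Ccr2 and Cx3cr1 all lie on chromosome 9, and the 798 genes tested on chromosome 9 had a median log2 fold change of -0.36 and 82.3% lay below 0.

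CXCR2 ligands attract neutrophils, and Cxcl1 is also made by stromal fibroblasts. Of the 5 ligands and 2 receptors of this group, 4 were tested and 1 passed the thresholds, Cxcl5, which was higher and was tested only because of its level in the anti-PD-1 tumors. Cxcl5 (ENSMUSG00000029371, protein-coding, chromosome 5 from 90759360 to 90761624, plus strand) had 0.219, 0.470 and 0.0880 FPKM in the IgG tumors, against 1.87, 0.575 and 1.58 FPKM in the anti-PD-1 tumors. These values rest on 9, 21 and 4 reads and on 89, 26 and 70 reads. The groups did not overlap, although anti-PD-1 replicate 2 with 26 reads was close to IgG replicate 2 with 21 reads. Its log2 fold change was 0.86 with 1 FPKM added (standard error 0.29, limma adjusted p = 0.355) and 2.45 with voom on the reads, and it passed the thresholds also where all detected genes were tested without the minimum. It did not pass the thresholds without IgG replicate 3 (0.76), anti-PD-1 replicate 1 (0.69) or anti-PD-1 replicate 3 (0.77).

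Cxcl1 was the most abundant CXCR2 ligand, with 7.56, 6.6 and 1.49 FPKM in the IgG tumors, against 6.77, 10.1 and 7.10 FPKM in the anti-PD-1 tumors. Only IgG replicate 3 was clearly apart from the others. The log2 fold change of 0.71 (standard error 0.46, limma adjusted p = 0.559) was 0.14 without IgG replicate 3 and 1.03 without IgG replicate 1. Cxcl15, known from lung epithelium, was highest in IgG replicate 2 with 2.23 FPKM and at most 0.601 FPKM in the other tumors. Cxcl2 and Cxcl3 did not reach the mean of 0.5 FPKM, with at most 22 and 3 reads in any tumor.

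The neutrophil receptor Cxcr2 had 7, 2 and 1 reads in the IgG tumors, against 27, 7 and 5 after anti-PD-1, all under 0.35 FPKM. Cxcr1, its neighbor and closest relative, had 6, 0 and 0 reads in the IgG tumors, against 0, 59 and 56 after anti-PD-1. With anti-PD-1 replicates 2 and 3 at 1.63 and 1.58 FPKM and IgG replicate 1 at 0.183 FPKM, the log2 fold change of 0.84, which ran from 0.60 without anti-PD-1 replicate 2 to 1.296 without anti-PD-1 replicate 1 (past the thresholds), is a description, since Cxcr1 reached the minimum only through these anti-PD-1 tumors. The 9 neutrophil markers, Cxcr2 among them, summed to 12.4, 5.94 and 2.92 FPKM in the IgG tumors, against 11.5, 26.1 and 6.13 FPKM in the anti-PD-1 tumors, with 6 of 9 under a mean of 0.5 FPKM. Much of this was S100a8, with 8.05, 0.961 and 1.06 FPKM in the IgG and 4.05, 21.1 and 2.12 FPKM in the anti-PD-1 tumors.

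Ligands of CXCR3 are induced by interferon-γ and recruit effector T cells. Cxcl11 was left out by its annotation, and none of the others passed the thresholds. Cxcl9 had 2.08, 2.58 and 1.09 FPKM in the IgG tumors, against 0.544, 1.96 and 0.600 FPKM in the anti-PD-1 tumors (log2 fold change -0.55, standard error 0.33, limma adjusted p = 0.523). Without anti-PD-1 replicate 2 it was at -0.85 and passed the thresholds as lower, and without IgG replicate 2 it was at -0.38. Cxcl10 was highest in the same anti-PD-1 replicate 2, at 3.11 FPKM, and lay between 0.607 and 1.41 FPKM in the other 5 tumors. Cxcr3, the receptor, stayed under the minimum with between 2 and 32 reads, the most in IgG replicate 2.

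Cxcl14, a chemokine of epithelium and fibroblasts whose receptor is not settled, was 1 of 2 members of the epithelial and mucosal group past the thresholds. Of the 10 genes of this group 5 were tested. Cxcl14 (ENSMUSG00000021508, protein-coding, chromosome 13 from 56288643 to 56296551, minus strand) had 9.62, 8.94 and 16.1 FPKM in the IgG tumors, against 32.5, 11.7 and 31.1 FPKM in the anti-PD-1 tumors. Anti-PD-1 replicates 1 and 3 were above all IgG tumors, and anti-PD-1 replicate 2 was inside the IgG range. Between the groups the log2 fold change was 0.98 (standard error 0.41, limma adjusted p = 0.405; exact permutation test, p = 0.2). It was close to the threshold and did not pass it under 7 of 14 alternatives, which include leaving out IgG replicate 1 (0.88), IgG replicate 2 (0.83), anti-PD-1 replicate 1 (0.73) or anti-PD-1 replicate 3 (0.76).

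Ccl27a, a skin and epithelial chemokine that attracts T cells through Ccr10, was the only member lower past the thresholds. Ccl27a (ENSMUSG00000073888, protein-coding, chromosome 4 from 41769467 to 41774247, minus strand) had 3.34, 4.72 and 3.55 FPKM in the IgG tumors, against 2.20, 1.63 and 1.77 FPKM in the anti-PD-1 tumors. The groups did not overlap. Ccl27a had a log2 fold change of -0.75 (standard error 0.19, limma adjusted p = 0.344; exact permutation test, p = 0.1) and passed the thresholds under all 14 alternatives. The 926 genes tested on chromosome 4 had a median log2 fold change of -0.40, and 83.6% of them were below 0. Exons of Ccl27a overlap Il11ra1 on the opposite strand, which had a log2 fold change of -0.52 (standard error 0.25, limma adjusted p = 0.440), and the strandedness of the counting is not given in the sources used here. In addition, 45.0% of the 50-base windows of its transcripts occur in other genes, among them Ccl27b, so that its value is uncertain. The part of these in the difference was not tested.

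Ccr10, the receptor of Ccl27a and of the mucosal chemokine Ccl28, had 0.869, 0.893 and 0.356 FPKM in the IgG tumors, against 0.226, 0.406 and 1.22 FPKM in the anti-PD-1 tumors, without a separation of the groups. Ccl25, the thymic and gut ligand of Ccr9, lay between 0.879 and 1.98 FPKM, and its exons overlap Elavl1 on the opposite strand, which was more abundant (7.01 to 9.88 FPKM). Cxcl17, a mucosal chemokine, was at 2.90 FPKM in IgG replicate 2, at 1.33 FPKM in anti-PD-1 replicate 1 and at most 0.387 FPKM in the others. Its log2 fold change was -0.21. It was -0.53 when IgG replicate 1 was left out and 0.37 when IgG replicate 2 was. Ccl28, Ccl20, Ccr6 and Ccr9 had means under 0.5 FPKM, and Ccl27b was at 0.

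Cxcl12 and its receptor Cxcr4 hold and guide hematopoietic and tumor cells, and Ackr3 scavenges Cxcl12. Cxcr4 had the highest mean of all members over the 6 tumors, although Cx3cl1 was above it in IgG replicate 2, and it made up 49.7% to 86.6% of the summed FPKM of the conventional receptors. It had 77.9, 25.7 and 53.6 FPKM in the IgG tumors, against 82.4, 53.3 and 66.9 FPKM in the anti-PD-1 tumors. The tumors overlapped, with IgG replicate 2 the lowest (log2 fold change 0.48, standard error 0.39, limma adjusted p = 0.634). Without IgG replicate 2 the change was 0.05 and without IgG replicate 1 it was 0.83.

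Cxcl12, a product of fibroblasts and endothelium, had 5.34, 5.05 and 5.38 FPKM in the IgG tumors, against 5.05, 2.54 and 2.92 FPKM in the anti-PD-1 tumors. Anti-PD-1 replicate 1 was level with the IgG tumors, and the other two were lower. Limma gave a log2 fold change of -0.51 (standard error 0.23, limma adjusted p = 0.420), with a 95% interval from -1.05 to 0.02. It passed the thresholds as lower without anti-PD-1 replicate 1 (-0.74) and with voom (-0.65), and was -0.36 without anti-PD-1 replicate 2. Ackr3 had 3.42, 4.18 and 1.39 FPKM in the IgG tumors, against 1.44, 1.29 and 1.358 FPKM in the anti-PD-1 tumors. IgG replicates 1 and 2 stood above the rest, while IgG replicate 3 was inside the anti-PD-1 range. The log2 fold change was -0.68 (standard error 0.30, limma adjusted p = 0.414), with -1.01 without IgG replicate 3, when the thresholds were passed, and -0.46 without IgG replicate 2.

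Cx3cl1 (fractalkine) and Cxcl16 are made as membrane-bound proteins and released by the proteases Adam10 and Adam17. Cx3cl1 had 21.6, 32.6 and 16.4 FPKM in the IgG tumors, against 24.8, 15.2 and 19.8 FPKM in the anti-PD-1 tumors. The groups overlapped (log2 fold change -0.20, 95% interval from -0.86 to 0.47). The change of Cx3cl1 was -0.42 without IgG replicate 3 and 0.06 without IgG replicate 2. Cxcl16 had 12.1, 13.97 and 5.10 FPKM in the IgG tumors, against 9.89, 10.2 and 12.2 FPKM in the anti-PD-1 tumors, with IgG tumors at both ends (log2 fold change 0.15, with -0.25 when IgG replicate 3 was left out and 0.40 when IgG replicate 2 was). Cx3cr1, the fractalkine receptor of monocytes and tissue macrophages, had 5.09, 10.5 and 8.60 FPKM in the IgG tumors, against 5.81, 4.44 and 9.30 FPKM in the anti-PD-1 tumors. These tumors overlapped as well (log2 fold change -0.27, 95% interval from -1.01 to 0.47). Cxcr6, the receptor of Cxcl16 on T and NK cells, was just under the minimum with a mean of 0.362 FPKM and reached 1.19 FPKM in IgG replicate 2.

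Ccl11 (eotaxin), the main ligand of Ccr3 on eosinophils, had 2.48, 1.89 and 1.51 FPKM in the IgG tumors, against 4.73, 3.13 and 2.37 FPKM in the anti-PD-1 tumors. Anti-PD-1 replicate 3 was just below IgG replicate 1, and the other two were above all IgG tumors. The log2 fold change was 0.56 (standard error 0.25, limma adjusted p = 0.419), and the thresholds were passed without IgG replicate 1 (0.68) or without anti-PD-1 replicate 3 (0.73). Without anti-PD-1 replicate 1 it was 0.35. Ccr3 had at most 7 reads in any tumor. The eosinophil granule genes Epx and Prg2 were at 0 in all 6 tumors.

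Ccl17, a dendritic cell ligand of Ccr4, had 4.70 FPKM in IgG replicate 2 and between 0.619 and 1.80 FPKM in the other tumors. Its log2 fold change of -0.45 was 0.07 without IgG replicate 2 and -0.84 without IgG replicate 1. Ccl22, which shares this receptor, and Ccr4 itself had means under 0.5 FPKM. Xcl1 (lymphotactin), a chemokine of T and NK cells for Xcr1 on cross-presenting dendritic cells, had 0, 28 and 22 reads in the IgG tumors, against 3, 1 and 5 after anti-PD-1. This was 0, 2.23 and 1.72 FPKM for IgG, compared with 0.224, 0.0788 and 0.402 FPKM for anti-PD-1, so that IgG replicate 1 was the lowest of all and the others were the highest. The log2 fold change of -0.75, which ran from -1.27 without IgG replicate 1 (past the thresholds) to -0.42 without IgG replicate 2, is a description, since Xcl1 reached the minimum only through IgG replicates 2 and 3. Xcr1 was likewise highest in IgG replicates 2 and 3, with 0, 28 and 18 reads in the IgG tumors, against 6, 3 and 11 after anti-PD-1.

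The lymphoid chemokines build B and T cell zones of lymph nodes. Cxcl13, which draws B cells through Cxcr5, had 0.158, 2.46 and 0.107 FPKM in the IgG tumors, against 1.05, 1.00 and 0.476 FPKM in the anti-PD-1 tumors. IgG replicate 2 was far above the other IgG tumors, and without it the log2 fold change went from 0.15 to 0.69 and passed the thresholds. The sign turned without IgG replicate 1 (-0.10) and without IgG replicate 3 (-0.13). Ccr7 was highest in the same tumor, with 50 reads against at most 14 in any other. The Ccr7 ligands Ccl19, Ccl21a and Ccl21b were listed at 0 in all 6 tumors. Of the 50-base windows of their transcripts on chromosome 4, 52.0%, 71.6% and 100% occur in other genes, so that a value of 0 is uncertain here. By counting error alone, 0 reads allowed up to 0.157 FPKM for Ccl19 and Ccl21a and 0.339 FPKM for Ccl21b.

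Of the 4 atypical receptors, Ackr3 and Ackr1 were tested and neither passed the thresholds. Ackr1, the chemokine receptor of venular endothelium, had 1, 52 and 24 reads in the IgG tumors, against 42, 16 and 13 after anti-PD-1. Its log2 fold change was -0.0019 on the log2(FPKM + 1) scale and 0.66 with voom, and 20.4% of its transcript windows are shared with Cadm3. Without IgG replicate 1 the change was -0.34, and without IgG replicate 2 it was 0.31. Ackr2 and Ackr4, which clear inflammatory CC and homeostatic chemokines, were under the minimum. In total the atypical receptors summed to 4.28, 5.86 and 2.58 FPKM in the IgG tumors, against 3.24, 2.27 and 2.68 FPKM in the anti-PD-1 tumors, and the groups overlapped (exact permutation test, p = 0.3).

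Under the mean of 0.5 FPKM were 32 of the 66 gene IDs, 19 of them with reads in at least 1 tumor and 13 at 0 in every tumor. The latter were 7 IDs on unplaced scaffolds, which are copies of Ccl19, Ccl21 and Ccl27 genes, and Ccl1, Ccl26, Ccl19, Ccl21a, Ccl21b and Ccl27b. The minimum fell between Cxcr1 (mean 0.566 FPKM), Cxcl15 (0.624 FPKM) and Ccr10 (0.662 FPKM) on the upper side and Ccr6 (0.389 FPKM) and Cxcr6 (0.362 FPKM) on the lower side. No member under the minimum exceeded 1.19 FPKM in any tumor. By counting error alone, 0 reads allowed up to 0.0575 FPKM for Ccl1, 0.483 FPKM for Ccl26 and 0.321 FPKM for Ccl27b. Of the 34 members tested, 7 share exon bases with another gene, and that gene had the higher mean FPKM for Ccl27a and Ccl25 only.

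Individual tumors carried much of the spread. IgG replicate 2 had the highest value for 16 of the 34 members tested (47.1%), where it was the highest for 20.6% of all genes. These included Cxcl9, Cxcl13, Cxcl15, Cxcl17, Ccl12, Ccl17, Xcl1, Ccr1, Ccr2 and Cx3cr1. Within the anti-PD-1 group, 5 of the 6 ligands past the thresholds as higher had their highest value in replicate 1 and 1 in replicate 3. Without IgG replicate 2, 6 members were past the thresholds as higher and 1 as lower, but Cxcl14 (0.83) no longer passed and Cxcl13 (0.69) did.

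The marker lists were set beside these values in the same tumors. T cell markers summed to 4.62 FPKM in IgG replicate 2 and to between 1.23 and 2.10 FPKM in the other tumors, and B cell markers to 4.07 FPKM in IgG replicate 2 and to at most 1.23 FPKM in the others. Macrophage and monocyte markers summed to 531, 608 and 381 FPKM in the IgG tumors, against 761, 417 and 805 FPKM in the anti-PD-1 tumors. Replicate 2 was the lowest of the anti-PD-1 tumors for this list and for Ccl8, Ccl6, Cxcl14 and Cxcl5. It was not the lowest for Ccl7 or Ccl9, whose lowest anti-PD-1 tumors were replicates 1 and 3. This low replicate 2 was not particular to the macrophage list. Among the anti-PD-1 tumors it was also the lowest for the pan-leukocyte, dendritic cell, T cell and B cell lists. The same held for the eosinophil and mast cell, fibroblast, endothelium, lymphatic endothelium and adipocyte lists, but not for neutrophils, NK cells or tumor epithelium. All 9 of the 10 macrophage markers that were tested had a log2 fold change above 0, as did 50.8% of all genes. Of these 9, 1 passed the thresholds, the lysosomal protein Cd68 (15.8 ± 2.27 in IgG and 27.4 ± 4.59 FPKM in anti-PD-1 tumors, SD, n = 3 each). The others tested ran from 0.0055 for Adgre1 to 0.49 for Mrc1, with Csf1r at 0.11. Lyz2 and C1qa had the highest means of the list, 231 and 161 FPKM, and changed by 0.31 and 0.34. The part of any of these cell types in the chemokine values was not tested.

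**Figure D4:**
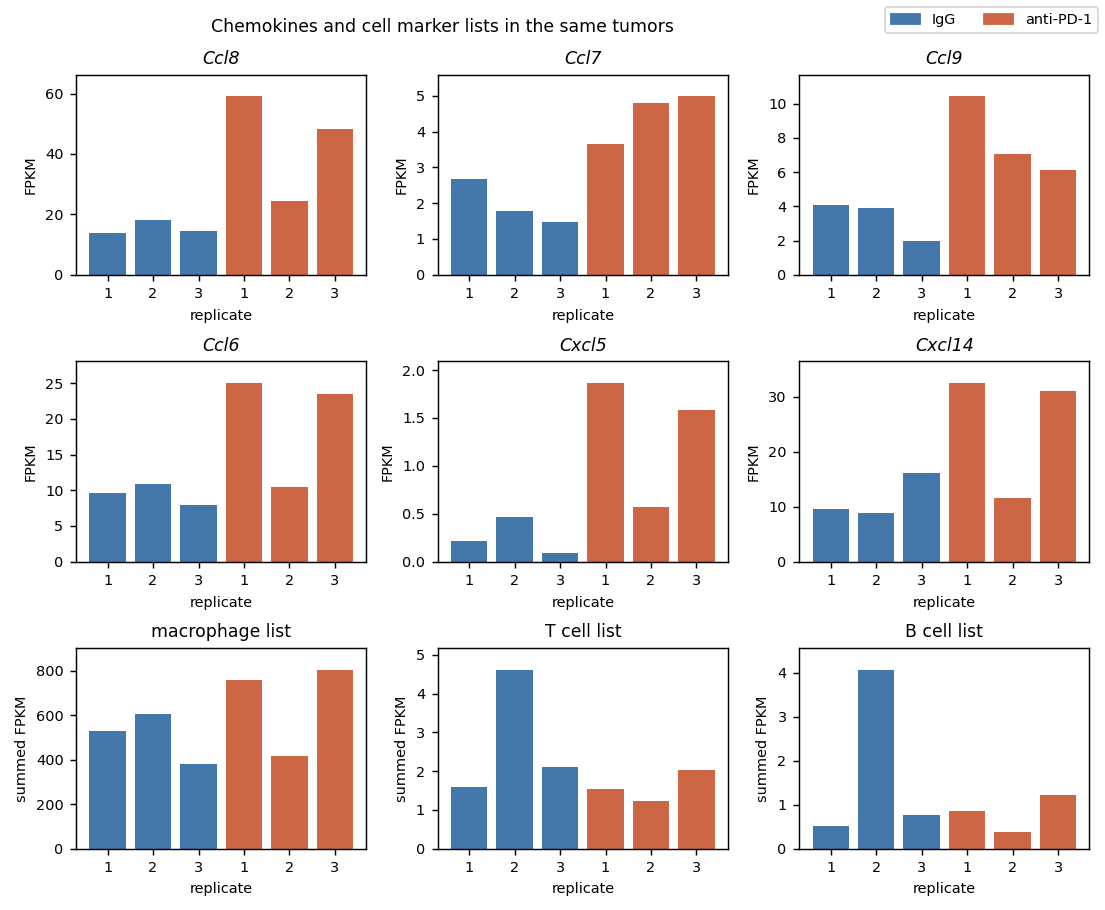
Level of the 6 chemokines past the thresholds as higher (upper rows, FPKM) and the summed markers of 3 cell types (lower row, summed FPKM), with 1 bar per tumor, IgG in blue and anti-PD-1 in orange. Anti-PD-1 replicates 1 and 3 are the highest for Ccl8, Ccl6, Cxcl5, Cxcl14 and the macrophage list, replicates 2 and 3 for Ccl7, replicates 1 and 2 for Ccl9, and IgG replicate 2 for the T cell and B cell lists.

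The fibroblast markers summed to 235, 76.5 and 107 FPKM in the IgG tumors, against 338, 90.6 and 201.3 FPKM in the anti-PD-1 tumors, with the highest sum in anti-PD-1 replicate 1. Of these 6 markers, 3 had a log2 fold change above 0, the abundant collagens Col1a1 (0.76), Col1a2 (0.70) and Col3a1 (0.77). Dcn (-0.18), Lum (-0.24) and Pdgfra (-0.12) were below 0, and none of the list passed the thresholds. Sums in the 2 groups ranged over 18.9 to 29.9 and 18.2 to 28.4 FPKM for pan-leukocyte genes, 4.36 to 7.50 and 5.29 to 7.99 FPKM for dendritic cells and 0.542 to 2.73 and 0.366 to 0.908 FPKM for NK cells, IgG before anti-PD-1. Eosinophil and mast cell markers ranged over 1.17 to 6.78 and 0.724 to 7.04 FPKM, endothelium over 12.5 to 18.1 and 7.87 to 15.2 FPKM, lymphatic endothelium over 3.54 to 4.46 and 1.43 to 6.77 FPKM, and adipocytes over 0.5003 to 2.20 and 0.430 to 1.32 FPKM. The groups overlapped in each of these lists. Among the epithelial markers Epcam and Erbb2 did not overlap and were higher in anti-PD-1 tumors, and Krt19, at 77.9 FPKM in IgG replicate 2 and at most 7.84 FPKM elsewhere, was lower past the thresholds.

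Genes that act around the chemokine system were listed apart. Of 27 genes of receptor signaling (G proteins, receptor kinases, arrestins, phospholipases, Rac and its activators), 26 were tested, 15 had a log2 fold change above 0 with a median of 0.09, and none passed the thresholds. Rac1, the small GTPase that drives the leading edge of migrating cells, did not overlap between the groups, with 45.6 to 54.4 FPKM in IgG and 59.3 to 67.9 FPKM in anti-PD-1 tumors (log2 fold change 0.34, standard error 0.15, limma adjusted p = 0.420). It was the only 1 of the 26 tested to separate the groups, where 9.3% of all genes did so as higher and 8.75% as lower. Of 12 inducers of chemokines, such as the cytokines Tnf and Il1b and the factors Nfkb1, Rela and Irf1, 9 were tested and none passed. Il1b was at 4.00, 3.95 and 1.55 FPKM in the IgG tumors, against 7.17, 3.35 and 2.69 FPKM in the anti-PD-1 tumors, with the groups overlapping.

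Of 9 genes that cut, shed or relate to chemokines, 7 were tested and 1 passed the thresholds, Dpp4, which was lower. Dpp4 removes a pair of N-terminal residues from many chemokines. It had 1.19, 1.57 and 3.11 FPKM in the IgG tumors, against 1.01, 0.346 and 0.733 FPKM in the anti-PD-1 tumors, and the groups did not overlap (log2 fold change -0.76, standard error 0.29, limma adjusted p = 0.383). Adam10 and Adam17, which release Cx3cl1 and Cxcl16, had log2 fold changes of -0.56 and 0.06, and Adam10 lies on chromosome 9. The platelet chemokine Pf4 had a log2 fold change of 0.27 and Ccrl2, a non-signaling relative of the receptors, of -0.18.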

How the data were processed

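Members, role groups, pathway lists and marker lists were chosen with earlier results of these data known. The authors deposited FPKM values for each sample. Per the submitters' processing notes they used FastQC 0.11.9, cutadapt 3.5, Bowtie2 2.4.1, RSEM 1.3.1 and DESeq2 1.36.0 in R 4.1 on mm10. How the FPKM was made from the RSEM counts, and whether reads were counted by strand, is not given in the sources used here. The legend of the study describes the RNA of a group as pooled, whereas the values were deposited as 6 separate samples. Each sample is taken here as 1 tumor, which the labels do not state.

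Of 54532 gene IDs, 54495 matched GENCODE release M21. FPKM was divided by median-of-ratios factors (1.00 to 1.01), and put on a log2 scale with a pseudocount of 1. The 15069 genes that averaged at least 0.5 FPKM were compared with limma 3.58.1 in R 4.3.3 (lmFit, eBayes with an intensity trend, two-sided, Benjamini-Hochberg). The thresholds called for a 1.5-fold change or more together with an unadjusted p under 0.05. Whole reads were recovered as FPKM times merged exon length, within 0.1 of a whole number. Limits from 3 reads cover counting error only, whereas the intervals come from limma and rest on the spread between tumors. The steps were tested on simulated reads.

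Values were given in every tumor for members past the thresholds, members whose groups did not overlap, the 8 ligands and 6 receptors with the highest mean FPKM, the 3 members with the largest change in each direction, and the receptors of ligands past the thresholds. Other members were named in their role group. The values of 1 member are not reported here, although the counts over members include it. Motifs were searched in RefSeq promoters of 300 bases on both strands. Alternatives were a pseudocount of 0.1, all detected genes without a filter, a minimum mean of 2 FPKM, no scaling factors, quantile normalization, no intensity trend, a replicate block, voom on recovered reads, and leaving out each tumor in turn. Analyses used Python 3.11.15 with pandas 2.3.3, numpy 2.4.6, scipy 1.17.1 and matplotlib 3.10.9.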

Additional observations from a re-analysis of the deposited data

How the results depend on the processing

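Across 14 alternatives, Ccl7, Ccl8, Ccl9 and Ccl27a kept their direction and stayed past the thresholds. Cxcl14 did not pass them without a filter on low FPKM, with quantile normalization, without the intensity trend and when IgG replicate 1, IgG replicate 2, anti-PD-1 replicate 1 or anti-PD-1 replicate 3 was left out. Ccl6 no longer passed in 4 and Cxcl5 in 3 of the fits without 1 tumor. Limma adjusted p-values of Ccl8 ran from 0.165 to 0.760. Of 460 single-gene values under the alternatives, 428 kept their call, some with a change of sign that moved them by less than 1 standard error, 14 no longer passed, 11 newly passed, 7 that were past the thresholds in neither fit changed sign and moved by more than 1 standard error, and 0 passed in the opposite direction. The median log2 fold change of the ligands was 0.46 with a mean of at least 2 FPKM, where 14 ligands were left, and voom on the recovered reads placed 2 members as lower. Leaving out 1 tumor gave 4 to 6 members as higher and 1 to 3 as lower, medians from 0.00032 to 0.32 for ligands and from -0.20 to 0.05 for receptors, and 366 to 1001 genes as higher and 375 to 1233 as lower. The fewest genes were found without IgG replicate 2 and the most without IgG replicate 1, which also gave 12 genes at an adjusted p under 0.05, none of them a member. The labels do not say whether equal replicate numbers pair the tumors. Deviations from the group mean correlated at -0.16, 0.0051 and 0.19 between tumors with the same number. Between tumors with different numbers they correlated at -0.26 to 0.24. With 3 tumors in each group, these values cannot decide whether the tumors are paired. With the replicate block 663 genes were higher and 671 lower, and 6 members were higher and 1 lower. For Cxcr1, Xcl1, Ackr1, Cxcl17 and Cxcl13, with 0 to 3 reads in the lowest tumor, the depth limits what could be seen. In this order, voom gave them log2 fold changes of 3.25, -1.28, 0.66, -0.41 and 1.10.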
